A study of Homo sapiens with 6 samples.

Results

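TRiC is the ring-shaped chaperonin of the cytosol, and HSP60 with its lid HSP10 is the chaperonin of mitochondria. The genes described here are 8 subunit genes of TRiC (TCP1, CCT2, CCT3, CCT4, CCT5, CCT6A, CCT7 and CCT8), HSPD1, which encodes HSP60, and HSPE1, which encodes HSP10. They are 10 of the 60658 genes measured in each library, found by matching the Ensembl identifiers to symbols of GENCODE 29, and the rule used no measured value. All 10 were expressed well above the filter of 0.1 FPKM and took part in every comparison.

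RNA was sequenced from C4-2B MDVR and CWR22Rv1 cells, prostate cancer lines that resist the antiandrogen drug enzalutamide. For 48 h, cells of each line were given DMSO as vehicle, apoptozole (APO) at 10 µM, or VER155008 (VER) at 10 µM, both of which are inhibitors of the chaperone HSP70. C4-2B MDVR was maintained with 20 µM enzalutamide and CWR22Rv1 without it, so line and maintenance medium cannot be told apart. The titles name the first line C4-2B MDVR, while the source field names LNCaP-C4-2B and the cell type field reads parental, and the titles were followed. Each of the 6 conditions had 1 library, so the differences below could not be checked against replicates and carry no p-value.

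FPKM is a fragment number adjusted for transcript length and sequencing depth, so levels of different genes can be set side by side per length. A fold change is given as a difference of log2(FPKM + 0.1). Genes past 1.2-fold, the threshold the study used, which is 0.26 on the log2 scale, were counted as higher or lower. In bulk RNA, fewer cells of a type and less RNA per cell cannot be told apart.

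The 6 libraries summed to between 647172 and 747932 FPKM. FPKM values carry no read totals, so no counting intervals were computed. All 8 prostate luminal markers examined (KLK2, KLK3, TMPRSS2, HOXB13, FOXA1, KRT8, KRT18 and FOLH1) were above 1 FPKM in every library, with sums of 855 to 1345 FPKM. The basal markers KRT5 and TP63 were listed at 0 in every library, and the 3 basal markers summed to at most 0.101 FPKM. Leukocyte markers summed to 0.548 to 3.78 FPKM, endothelial markers to at most 0.294 FPKM, and fibroblast markers to 6.997 to 32.0 FPKM, the largest part being LUM in CWR22Rv1.

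Chaperonins enclose unfolded proteins in a central chamber and use ATP to drive cycles of opening and closing. TRiC stacks a pair of rings, each built of different subunits in a fixed order. It folds actins, tubulins and many proteins with WD40 repeats. Prefoldin and HSP70 deliver clients to it, and phosducin-like proteins are further partners of it. HSP60 assembles from copies of the same subunit, is capped by HSP10, and folds proteins that mitochondrial HSP70 has pulled into the matrix. Cytosolic heat shock genes are switched on by heat shock factor HSF1, which binds repeated inverted units of nGAAn, and mitochondrial chaperones are also induced when proteins misfold in the matrix.

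HSPD1 and HSPE1 stand head to head on chromosome 2 and share a promoter region, and the letters of that region were read to see which elements the pair holds in common. RefSeq promoter windows of 300 bases on GRCh38.p14 were found for 9 of the 10 genes, 12 windows in all, with none for CCT6A. The 4 windows below hold a pair of heat shock units or an E-box and belong to the genes that the results turn on. They are printed 5′ to 3′ on the gene's strand, and capitals mark matches to inverted pairs of heat shock units, GAANNTTC and TTCNNGAA, and to the E-box CACGTG.
HSPD1, chr2:197499791-197500090, minus strand: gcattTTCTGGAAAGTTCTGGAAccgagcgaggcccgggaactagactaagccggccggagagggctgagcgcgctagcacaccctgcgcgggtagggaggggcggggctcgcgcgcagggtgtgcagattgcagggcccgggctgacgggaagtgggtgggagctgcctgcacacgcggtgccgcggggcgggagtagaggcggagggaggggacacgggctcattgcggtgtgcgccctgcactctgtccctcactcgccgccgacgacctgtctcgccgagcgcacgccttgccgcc
HSPE1, chr2:197500129-197500428, plus strand: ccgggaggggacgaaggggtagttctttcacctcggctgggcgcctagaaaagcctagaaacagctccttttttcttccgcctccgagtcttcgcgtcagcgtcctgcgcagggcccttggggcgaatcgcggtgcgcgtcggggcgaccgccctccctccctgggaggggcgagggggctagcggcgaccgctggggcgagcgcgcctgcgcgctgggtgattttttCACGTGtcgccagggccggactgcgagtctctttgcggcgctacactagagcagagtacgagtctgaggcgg
CCT4, chr2:61888607-61888906, minus strand: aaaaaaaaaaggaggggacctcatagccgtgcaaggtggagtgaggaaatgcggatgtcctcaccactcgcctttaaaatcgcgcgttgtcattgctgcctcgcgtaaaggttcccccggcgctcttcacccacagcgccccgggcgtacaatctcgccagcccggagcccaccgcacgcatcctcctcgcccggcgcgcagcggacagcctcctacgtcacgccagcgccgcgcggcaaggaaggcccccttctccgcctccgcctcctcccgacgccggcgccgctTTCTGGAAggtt
TCP1, chr6:159789553-159789852, minus strand: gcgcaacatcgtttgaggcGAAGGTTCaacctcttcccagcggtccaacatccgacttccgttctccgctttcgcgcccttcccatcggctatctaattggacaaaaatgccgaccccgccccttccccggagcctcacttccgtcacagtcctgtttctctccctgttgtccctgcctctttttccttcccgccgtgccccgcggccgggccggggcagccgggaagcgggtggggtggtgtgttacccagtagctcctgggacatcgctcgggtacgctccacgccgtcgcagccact

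The first HSPD1 window holds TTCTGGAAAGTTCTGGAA, which is 4 alternating heat shock units in a row, at chr2:197500068-197500085. Runs of 4 units were found in 12 of 35116 windows of all genes (0.0342%) and runs of 3 in 172 (0.49%). These runs contain the shorter matches, since GAANNTTC and TTCNNGAA overlap within them. The run lies between the HSPD1 start of this window and the RefSeq HSPE1 start (chr2:197500379), upstream of the HSPE1 window. It lies downstream of the start of another HSPD1 window (chr2:197500274) and within the GENCODE span of HSPE1, which begins at chr2:197499994. Its place relative to a start thus depends on the transcript. The HSPE1 window and that other HSPD1 window share the same CACGTG at chr2:197500357-197500362, a motif held by 7.26% of all windows.

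Among TRiC genes, a lone inverted pair was found in CCT4 (TTCTGGAA, just after its start), in TCP1 (GAAGGTTC) and in a window of CCT2 (GAAATTTC). GAANNTTC was in 6.77% and TTCNNGAA in 7.74% of all windows. TGATGNAAT, an element of ATF4 with CHOP, was in 0.991% of all windows and in 0 of the 12 windows. The letters GGGCGG were in windows of 7 of the 9 genes and 45% of all windows, CGGAAG in 6 genes and 19.5%, and CCAAT in 4 genes and 34.6%. All motifs were searched on both strands, and a match is only a description of these letters.

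The TRiC subunits were abundant and of like level in the DMSO libraries. They lay between 119 FPKM (CCT4) and 299 FPKM (CCT3) in C4-2B MDVR and between 105 FPKM (CCT4) and 200.5 FPKM (CCT7) in CWR22Rv1. Over the 6 libraries the 8 subunits ranked between the 92.1th and 98.6th percentile of the genes above 0.1 FPKM. CCT4 was the lowest subunit in all 6 libraries. CCT3 was the highest in the 3 C4-2B MDVR libraries, CCT7 in CWR22Rv1 with DMSO and with APO, and TCP1 in CWR22Rv1 with VER.

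The spread among subunits was narrower in CWR22Rv1. The highest subunit was 2.51, 1.84 and 2.39 times the lowest in the DMSO, APO and VER libraries of C4-2B MDVR. It was 1.91, 1.53 and 1.57 times the lowest in those of CWR22Rv1. No replicate shows how far such ratios vary between cultures.

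**Figure D1:**
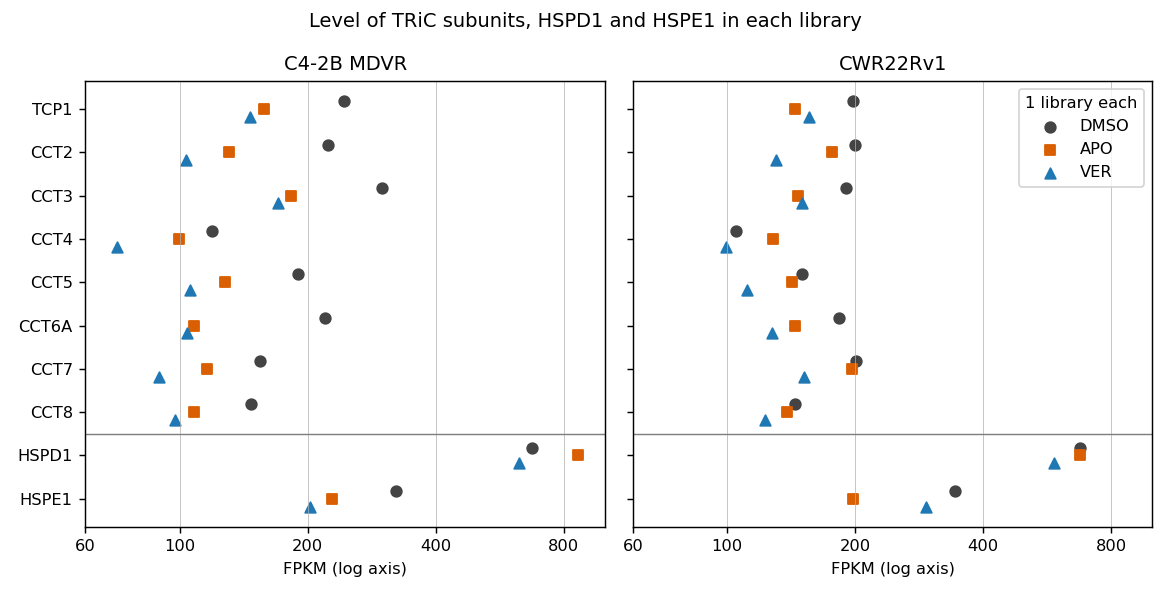
FPKM (log axis) of the 8 TRiC subunits, HSPD1 and HSPE1 in C4-2B MDVR (left) and CWR22Rv1 (right), with 1 point for each library: DMSO as circles, APO as squares and VER as triangles. In C4-2B MDVR the DMSO point lies to the right of both inhibitor points for all 8 TRiC subunits, while in CWR22Rv1 the APO points of CCT5, CCT7 and CCT8 lie close to DMSO and that of CCT4 lies above it.

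In C4-2B MDVR cells, TRiC RNA was lower with each inhibitor. With APO, 7 of 8 subunits were lower by more than 1.2-fold and 0 were higher, where 35.4% of 20122 genes were lower and 37.7% higher. The median log2 fold change of the subunits was -0.60, beside 0 for all genes compared, and the FPKM sum of the 8 went from 1596 to 1032. With VER, 8 of 8 were lower, where 34.9% of all genes were lower and 35.6% higher, with a median of -0.80 beside 0 and a sum of 888. Among genes with a mean over 10 FPKM, which are closer to the subunits in level, 31.8% were lower with APO and 33.1% with VER.

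CCT6A and CCT2 had the lowest ratios to DMSO in this line. CCT6A, the zeta subunit (chr7:56051630-56063989), was at 219 FPKM with DMSO, 108 FPKM with APO and 104 FPKM with VER. Its log2 fold changes were -1.02 and -1.07, so the inhibitor libraries lay close to each other. CCT2, the beta subunit (chr12:69585334-69601570), was at 224, 131 and 103 FPKM, with log2 fold changes of -0.77 and -1.11.

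CCT3, the gamma subunit (chr1:156308968-156367873), was in C4-2B MDVR at 299, 183 and 169.9 FPKM with DMSO, APO and VER. TCP1, the alpha subunit for which the complex is named (chr6:159778498-159789749), was at 244, 158 and 146 FPKM. For each, the VER library was only slightly below the APO library, with log2 differences of -0.11 between them. These small differences turned positive when libraries were scaled to the same FPKM sum, with or without genes of the mitochondrial chromosome.

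CCT5, the epsilon subunit (chr5:10249921-10266412), was at 189.7, 128 and 106 FPKM, with log2 fold changes of -0.57 for APO and -0.84 for VER. CCT7, the eta subunit (chr2:73233420-73253021), was at 154, 116 and 89.5 FPKM, with changes of -0.41 and -0.79. CCT8, the theta subunit (chr21:29055805-29073797), was at 147, 108 and 97.4 FPKM, with changes of -0.44 and -0.59. As deposited, the order in all 3 was DMSO, then APO, then VER. For CCT8 the log2 difference of VER from APO was -0.15, and it was 0.00 at the same FPKM sum and 0.03 without the mitochondrial chromosome, so the order of its inhibitor libraries depended on the scaling.

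CCT4, the delta subunit (chr2:61868089-61888804), was the member that stayed nearest to DMSO with APO. It was at 119 FPKM with DMSO and 99.7 FPKM with APO, a log2 fold change of -0.26, just inside 1.2-fold. With VER it was at 71.1 FPKM, a change of -0.74. Under each of the 3 other scalings the APO value of CCT4 also passed 1.2-fold, so that 8 of 8 subunits were lower.

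In CWR22Rv1 cells the same subunits lay nearer to DMSO, a difference between the lines that could not be tested with 1 library per condition. With APO, 3 of 8 were lower by more than 1.2-fold and 1 was higher, where 39.2% of 21608 genes were lower and 35.6% higher. The share of subunits that were lower was thus close to that of all genes. The median was -0.13, beside -0.01 for all genes. With VER, 6 of 8 were lower and 0 higher, where 32.3% of all genes were lower and 32.1% higher, and the median was -0.37 beside 0.00. The subunit sum went from 1370 FPKM with DMSO to 1217 with APO and 1049 with VER. Among genes with a mean over 10 FPKM, 32.9% were lower with APO and 28.5% with VER in CWR22Rv1. With VER, fewer of all genes passed 1.2-fold in either direction in CWR22Rv1 (64.4%) than in C4-2B MDVR (70.5%). With APO these shares were 74.8% and 73.1%.

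With APO in CWR22Rv1, the 3 lower subunits were TCP1, CCT3 and CCT6A. TCP1 was at 198 FPKM with DMSO and 144 FPKM with APO, a log2 fold change of -0.45. CCT3 was at 190.3 and 147 FPKM, a change of -0.37, and CCT6A was at 183 and 144 FPKM, a change of -0.34. At the same FPKM sum TCP1 alone of these stayed past 1.2-fold (-0.34), while CCT3 (-0.26) and CCT6A (-0.22) lay within it, and without the mitochondrial chromosome CCT2 (-0.33) joined the 3.

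CCT4 was the subunit that was higher, at 105 FPKM with DMSO and 128 FPKM with APO, a log2 fold change of 0.29. Without genes of the mitochondrial chromosome in the scaling, it no longer passed 1.2-fold. CCT2 was at 199.6 and 176 FPKM, a change of -0.18. CCT5, CCT7 and CCT8 had changes of -0.07, -0.03 and -0.06, which turned positive (0.04, 0.09 and 0.05) when libraries were scaled to the same FPKM sum.

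With VER in CWR22Rv1, CCT2 was again the lowest relative to DMSO, at 130.2 FPKM and a log2 fold change of -0.62. CCT6A followed at 127 FPKM (-0.52), CCT5 at 112 FPKM (-0.42) and CCT7 at 152 FPKM (-0.40). TCP1 at 156 FPKM and CCT3 at 150.0 FPKM each had a change of -0.34. CCT8 at 123 FPKM (-0.23) and CCT4 at 99.1 FPKM (-0.09) were within 1.2-fold of DMSO.

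**Figure D2:**
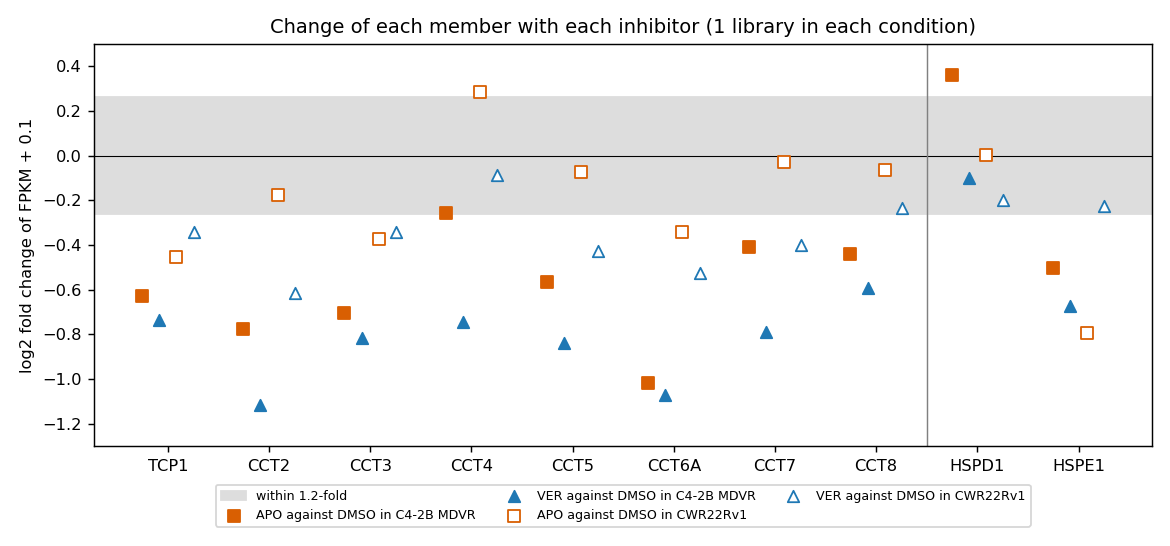
Log2 fold change of FPKM + 0.1 against the DMSO library of the same line for each gene, with APO as squares and VER as triangles, filled for C4-2B MDVR and open for CWR22Rv1, and the band within 1.2-fold in grey. For all 8 TRiC subunits the filled point lies below the open point of the same inhibitor, and the 3 open squares of CCT5, CCT7 and CCT8 near 0 turn positive under scaling to the same FPKM sum.

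Proliferation genes were lower in the same libraries. Of 15 proliferation genes, 15 were lower by more than 1.2-fold in C4-2B MDVR under each inhibitor (medians -1.66 and -2.81 for APO and VER). There 35.4% and 34.9% of all genes were lower. In CWR22Rv1, 14 were lower with APO and 15 with VER (medians -1.001 and -1.20), where 39.2% and 32.3% of all genes were lower. MKI67, the Ki-67 antigen of cycling cells, was in C4-2B MDVR at 23.4, 6.86 and 1.499 FPKM with DMSO, APO and VER and at 27.4, 8.64 and 10.1 FPKM in CWR22Rv1. AURKB, a kinase of chromosome segregation, was at 54.4, 15.8 and 4.201 FPKM and at 69.8, 28.6 and 26.9 FPKM. CCNB1, a mitotic cyclin, and the kinase AURKA were the least reduced on average, with log2 fold changes of -0.29 and -2.62 and of -0.18 and -1.29 for CCNB1, and of -0.93 and -2.53 and of -0.27 and -1.27 for AURKA. Whether cell division plays a part in the TRiC values was not tested. The APO and VER libraries of a line are set against the same DMSO library, so their changes are not independent of each other.

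Several luminal markers also moved. In C4-2B MDVR, 5 of the 8 were lower and 2 higher by more than 1.2-fold with APO (median -1.61), and 5 were lower and 0 higher with VER (median -0.46). In CWR22Rv1, 4 were lower and 2 higher with each inhibitor, with medians of -0.44 with APO and -0.24 with VER. Of all genes in C4-2B MDVR, 35.4% were lower and 37.7% higher with APO, and 34.9% and 35.6% with VER. Of those in CWR22Rv1, 39.2% were lower and 35.6% higher with APO, and 32.3% and 32.1% with VER. The part of the luminal markers in the TRiC values was not tested.

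The change of a gene that scaling cannot alter is its difference from other genes of the same libraries. Scaling to the same FPKM sum moved the median of genes above 1 FPKM by -0.14 with APO in C4-2B MDVR and by 0.11 with APO in CWR22Rv1. Leaving out the mitochondrial chromosome moved it by -0.15 in each. That chromosome held 15.5%, 14.8% and 16.4% of FPKM in C4-2B MDVR and 25.7%, 10.4% and 25.7% in CWR22Rv1 with DMSO, APO and VER. Relative to the median of genes above 1 FPKM, the TRiC median with APO was -0.61 in C4-2B MDVR and -0.12 in CWR22Rv1 as deposited. Over all 4 scalings it ran from -0.61 to -0.62 and from -0.11 to -0.12.

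HSPD1 was the most abundant of the 10 genes in every library. HSPD1 (chr2:197486581-197516737) was in C4-2B MDVR at 673 FPKM with DMSO, 865 FPKM with APO and 628 FPKM with VER. In CWR22Rv1 it was at 674, 675 and 587 FPKM. It lay between the 99.3th and 99.4th percentile of genes above 0.1 FPKM in all 6 libraries.

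HSPD1 was higher than DMSO by more than 1.2-fold in a single comparison, with APO in C4-2B MDVR, where its log2 fold change was 0.36. Under scaling to the same FPKM sum this value was 0.21, within 1.2-fold, and it was 0.20 without the mitochondrial chromosome. Relative to the median gene above 1 FPKM it was 0.34 under all 4 scalings. With VER it was -0.10 in C4-2B MDVR and -0.20 in CWR22Rv1, within 1.2-fold, although the latter was -0.26 and just past it under either scaling to the same sum. With APO in CWR22Rv1 it was 0.00 as deposited, -0.01 at a median ratio of 1, 0.12 at the same FPKM sum and -0.15 at the same sum without the mitochondrial chromosome.

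HSPE1 had a lower log2 fold change than HSPD1 in all 4 comparisons, but the values were close with VER in CWR22Rv1 (-0.23 and -0.20). HSPE1 (chr2:197499994-197503457) was in C4-2B MDVR at 322 FPKM with DMSO, 228 FPKM with APO and 202 FPKM with VER, with log2 fold changes of -0.50 and -0.67. In CWR22Rv1 it was at 344, 198 and 294 FPKM, with changes of -0.79 and -0.23. It was thus lower than DMSO by more than 1.2-fold in 3 of the 4 comparisons, and in the fourth, VER in CWR22Rv1, it lay within 1.2-fold, or just past it (-0.29) under either scaling to the same sum.

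The ratio of HSPD1 to HSPE1 FPKM differed between libraries accordingly. In C4-2B MDVR it was 2.09 with DMSO, 3.80 with APO and 3.11 with VER, and in CWR22Rv1 it was 1.96, 3.41 and 2.00. Such a ratio within a library does not depend on how libraries are scaled. Both APO libraries had the highest ratio of their line, and the VER library of CWR22Rv1 was close to its DMSO library. The ratio of HSPD1 to the TRiC median was 3.29, 7.08 and 6.05 in C4-2B MDVR and 3.62, 4.68 and 4.57 in CWR22Rv1, with the DMSO library lowest in each line.

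HSPE1 lies on the opposite strand within the annotated span of HSPD1, whose longest transcripts begin beyond it. Whether the authors' quantification used the strand is not given in the sources used here, so reads in the overlap cannot be assigned with certainty.

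**Figure D3:**
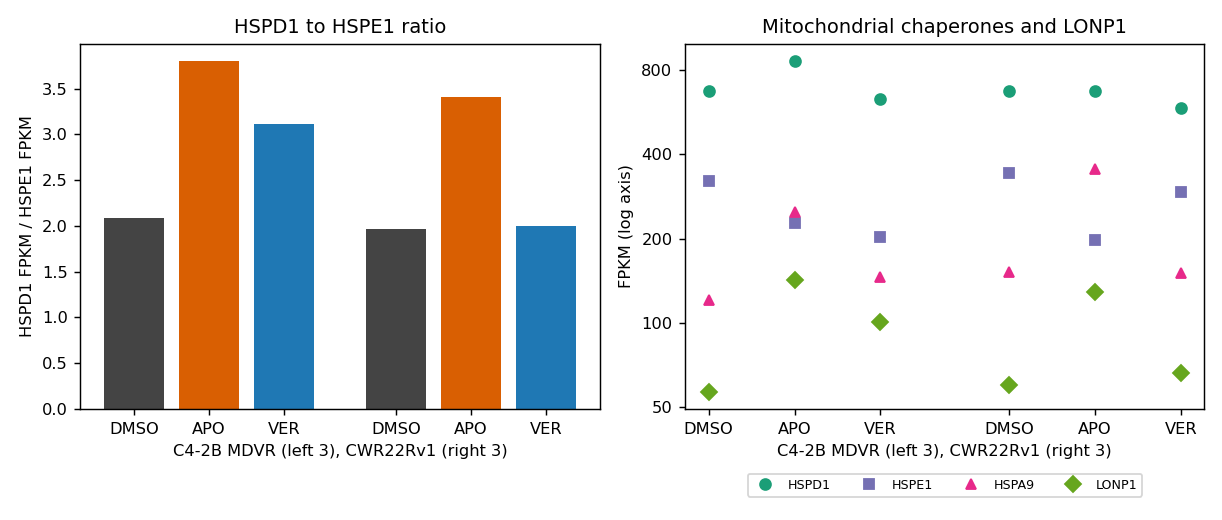
Left, the ratio of HSPD1 to HSPE1 FPKM in each library as bars from 0; right, FPKM (log axis) of HSPD1, HSPE1, HSPA9 and LONP1 in each library, with the 3 C4-2B MDVR libraries before the 3 CWR22Rv1 libraries in each panel. The ratio is highest with APO in each line (3.80 and 3.41), where HSPA9 and LONP1 are also at their highest and HSPE1 is below its DMSO value.

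The mitochondrial HSP70 system, which hands imported proteins to HSP60, was examined next. With APO, 3 of its 6 genes were higher and 1 was lower in C4-2B MDVR (median 0.23), and 4 were higher and 0 lower in CWR22Rv1 (median 0.68). With VER, 2 were higher and 2 lower in C4-2B MDVR (median 0.05), and 1 was higher and 2 lower in CWR22Rv1 (median 0.00). Of all genes in C4-2B MDVR, 37.7% were higher and 35.4% lower with APO, and 35.6% and 34.9% with VER. Of those in CWR22Rv1, 35.6% were higher and 39.2% lower with APO, and 32.1% and 32.3% with VER.

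HSPA9, the HSP70 of the matrix, was in C4-2B MDVR at 121 FPKM with DMSO, 249 FPKM with APO and 145 FPKM with VER. In CWR22Rv1 it was at 151, 355 and 151 FPKM. The APO library was the highest of each line, with log2 fold changes of 1.04 and 1.23. HSPA9 exceeded HSPE1 in FPKM with APO in each line, and lay below it in the other 4 libraries.

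The exchange factors of HSPA9 did not move together. GRPEL2 had log2 fold changes in C4-2B MDVR of 0.94 (APO) and 0.64 (VER), and of 1.12 and 0.35 in CWR22Rv1. GRPEL1 had changes of -0.69 and -0.60 in C4-2B MDVR and of -0.04 and -0.53 in CWR22Rv1. DNAJA3, the J-domain partner of HSPA9, had changes of 0.38 and 0.21 in C4-2B MDVR and of 0.68 and 0.00 in CWR22Rv1. HSCB had changes of -0.09 and -0.12 and of 0.69 and 0.04, and DNLZ of 0.08 and -0.51 and of -0.14 and -0.42.

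Among mitochondrial proteases and the mitochondrial HSP90, LONP1 was higher in 3 of the 4 comparisons. LONP1, an ATP-dependent protease of the matrix, was in C4-2B MDVR at 56.5 FPKM with DMSO, 143 FPKM with APO and 101 FPKM with VER, and at 59.97, 129 and 66.3 FPKM in CWR22Rv1. Over the 9 genes, 2 were higher and 3 lower with APO in each line. With APO, 37.7% and 35.6% of all genes were higher in C4-2B MDVR and CWR22Rv1, and 35.4% and 39.2% were lower. With VER, 2 of the 9 were higher and 4 lower in C4-2B MDVR, where 35.6% of all genes were higher and 34.9% lower. In CWR22Rv1 with VER, 0 were higher and 5 lower, where 32.1% of all genes were higher and 32.3% lower. TRAP1, the mitochondrial HSP90, had changes of -0.23 and -0.59 in C4-2B MDVR and of -0.47 and -0.56 in CWR22Rv1 with APO and VER. SPG7, a protease subunit of the inner membrane, had changes of -0.70 and -0.33 and of -1.40 and -0.03. YME1L1, another inner membrane protease, had changes of 0.26 and 0.10 and of 0.62 and -0.01.

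Genes of mitochondrial protein import had counts that depended on the comparison. With APO, 5 of 10 were lower and 2 higher in each line, with a median of -0.24 in each, where 35.4% and 39.2% of all genes were lower. At the same FPKM sum the lower genes with APO were 6 in C4-2B MDVR and 2 in CWR22Rv1. With VER, 5 were lower and 0 higher in C4-2B MDVR (median -0.20), where 34.9% of all genes were lower, and 2 were lower and 1 higher in CWR22Rv1 (median -0.06), where 32.3% of all genes were lower. TOMM40, the channel of the outer membrane, had changes of -1.15 and -1.02 in C4-2B MDVR and of -0.70 and -0.86 in CWR22Rv1. TIMM44, which anchors HSPA9 at the inner membrane channel, had changes of 0.53 and 0.06 and of 0.49 and -0.12. PMPCA, a subunit of the presequence peptidase, had changes of -0.62 and -0.51 and of -0.79 and -0.32, and the receptor TOMM20 of 0.15 and 0.13 and of 0.13 and 0.46.

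Transcription factors that act in mitochondrial stress, and also in other stress responses, were mostly higher. Of 4 genes, in C4-2B MDVR 3 were higher with APO and 4 with VER, where 37.7% and 35.6% of all genes were higher. In CWR22Rv1, 3 were higher with each inhibitor and 1 was lower with APO. There 35.6% of all genes were higher and 39.2% lower with APO, and 32.1% were higher with VER. DDIT3, which encodes CHOP, was in C4-2B MDVR at 18.5, 437 and 185 FPKM with DMSO, APO and VER and at 49.3, 753 and 125 FPKM in CWR22Rv1. ATF4 had log2 fold changes of 1.79 and 1.72 in C4-2B MDVR and of 1.18 and 0.68 in CWR22Rv1. CEBPB had changes of 2.46 and 1.66 and of 2.81 and 0.88. ATF5, a regulator of the mitochondrial response, was not higher throughout, with changes of 0.11 and 0.39 and of -1.002 and 0.15.

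The cytosolic targets of heat shock factor were mostly lower in 3 of the 4 comparisons. Of 15 such genes, 13 were lower and 1 higher in C4-2B MDVR with APO (median -0.80), and 13 lower and 1 higher with VER (median -0.69). In CWR22Rv1, 10 were lower and 1 higher with APO (median -0.43), but 1 was lower and 3 were higher with VER (median -0.07). With APO and VER, 35.4% and 34.9% of all genes were lower in C4-2B MDVR, and 39.2% and 32.3% in CWR22Rv1. The shares that were higher were 37.7% and 35.6% in C4-2B MDVR and 35.6% and 32.1% in CWR22Rv1. With VER in CWR22Rv1 the TRiC median was -0.37, and 11 of these heat shock genes lay within 1.2-fold. Of all genes, 64.4% lay past 1.2-fold in either direction in that comparison. Whether heat shock factor plays a part in the TRiC values was not tested.

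HSPH1, which recharges HSP70 with ATP, was at 81.7, 35.3 and 44.0 FPKM in C4-2B MDVR and at 25.7, 10.9 and 23.1 FPKM in CWR22Rv1. HSPA1B, an inducible HSP70 gene nearly identical to HSPA1A so that reads may be split between the pair, was at 62.1, 13.5 and 33.0 FPKM and at 39.2, 12.5 and 56.6 FPKM. HSPA8, the constitutive HSP70, was at 1332, 1399 and 719 FPKM and at 713, 545 and 1209.98 FPKM. HSPA4L, a relative of HSPH1, had log2 fold changes of -0.80 and 0.38 and of 0.11 and 0.10. HSPD1, whose window above holds the 4 heat shock units, lay within 1.2-fold of DMSO or above it in all 4 comparisons as deposited. The same units also lie upstream of the RefSeq HSPE1 start, though inside the GENCODE span of HSPE1. HSPE1 had log2 fold changes of -0.50 and -0.67 in C4-2B MDVR and of -0.79 and -0.23 in CWR22Rv1. Whether these units play a part in either gene's values was not tested.

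The tubulins and actins are the main clients of TRiC. Of 13 genes, 7 were lower and 4 higher with APO in C4-2B MDVR (median -0.31), and 9 lower and 2 higher with VER (median -0.97). In CWR22Rv1, 9 were lower and 1 higher with APO (median -0.62), and 12 lower and 0 higher with VER (median -0.89). Among all genes of C4-2B MDVR, 35.4% were lower and 37.7% higher with APO, and 34.9% and 35.6% with VER. Among those of CWR22Rv1, 39.2% were lower and 35.6% higher with APO, and 32.3% and 32.1% with VER. Tubulin genes are close relatives, so the split of reads among them is uncertain.

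TUBA1B, an alpha tubulin, was in C4-2B MDVR at 1377 FPKM with DMSO, 779 FPKM with APO and 328 FPKM with VER. In CWR22Rv1 it was at 1375, 444 and 466 FPKM. TUBB, a beta tubulin, was at 886, 517 and 244 FPKM and at 467, 190.4 and 158 FPKM. These client genes lay further below DMSO than any TRiC subunit in the same comparison, except for CCT6A with APO in C4-2B MDVR.

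TUBB6 had opposite signs in the lines, a difference that was not tested, with log2 fold changes in C4-2B MDVR of 0.90 (APO) and 1.10 (VER), and of -0.35 and -0.87 in CWR22Rv1. TUBB2B had changes of 0.85 and -0.24 and of 0.90 and 0.21 at levels of 0.227 to 3.26 FPKM. The actin genes differed from each other: ACTB was at 1664, 1338 and 1162 FPKM in C4-2B MDVR, while ACTG1 was at 1151, 1531 and 1287 FPKM.

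Prefoldin and phosducin-like genes, which encode partners of TRiC, were above DMSO most often with APO in CWR22Rv1. There 7 of 9 were higher and 0 lower (median 0.44), where 35.6% of all genes were higher, and over the 3 other scalings between 5 and 7 were higher. With APO in C4-2B MDVR, 4 were higher and 1 lower (median 0.24), where 37.7% of all genes were higher, but at the same FPKM sum 2 were higher and 3 lower. With VER, 1 was higher and 3 lower in C4-2B MDVR (median -0.22), where 34.9% of all genes were lower. In CWR22Rv1 with VER, 2 were higher and 1 lower (median -0.03, which turned positive under a median ratio of 1), where 32.1% of all genes were higher and 32.3% lower. PFDN5, the most abundant prefoldin gene, was at 246, 358 and 333 FPKM in C4-2B MDVR and at 354, 425 and 581 FPKM in CWR22Rv1. TXNDC9, a phosducin-like partner, had log2 fold changes of 0.55 and 0.00 and of 0.63 and 0.11. PFDN6 had changes of -0.27 and -0.14 and of -0.24 and -0.03, and PDCL3 of -0.17 and -0.28 and of 0.29 and -0.39.

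The tubulin cofactors take tubulin over from TRiC, and 4 of 5 were matched by symbol. TBCA was at 169, 196 and 147 FPKM in C4-2B MDVR and at 204, 254 and 224 FPKM in CWR22Rv1. TBCD had log2 fold changes of 0.08 and 0.24 in C4-2B MDVR and of -1.05 and -0.78 in CWR22Rv1. TBCB had changes of 0.51 and 0.34 and of 0.15 and -0.33, and TBCC of 0.22 and 0.04 and of 0.22 and -0.15.

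Other proteins that TRiC folds went both ways. With APO, 2 of 9 genes were higher and 2 lower in C4-2B MDVR, where 37.7% of all genes were higher and 35.4% lower. In CWR22Rv1 with APO, 4 were higher and 1 lower, where 35.6% of all genes were higher and 39.2% lower. With VER, 2 were higher and 3 lower in C4-2B MDVR, where 35.6% of all genes were higher and 34.9% lower. In CWR22Rv1 with VER, 0 were higher and 4 lower, where 32.1% of all genes were higher and 32.3% lower. The lowest were genes of mitosis: PLK1 was at 92.6, 44.5 and 3.84 FPKM in C4-2B MDVR and at 52.2, 43.0 and 13.5 FPKM in CWR22Rv1. CDC20 was at 144, 86.0 and 11.4 FPKM and at 102, 115 and 25.8 FPKM. PPP2R2A, a regulatory subunit of phosphatase 2A, had changes of 0.59 and -0.11 and of 0.92 and -0.07, and STAT3 of 0.04 and 0.28 and of 0.41 and 0.22.

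The chaperonin-like BBS genes, relatives of TRiC subunits that assemble the BBSome, were expressed at lower levels. BBS12 was at 0.670, 1.22 and 1.52 FPKM in C4-2B MDVR and at 0.706, 2.27 and 1.69 FPKM in CWR22Rv1. BBS10 was at 14.3, 16.0 and 17.8 FPKM and at 13.8, 14.5 and 22.4 FPKM. MKKS was at 15.4, 13.4 and 11.8 FPKM and at 20.1, 24.2 and 19.5 FPKM. BBS12 was thus higher than DMSO with each inhibitor in each line.

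**Figure D4:**
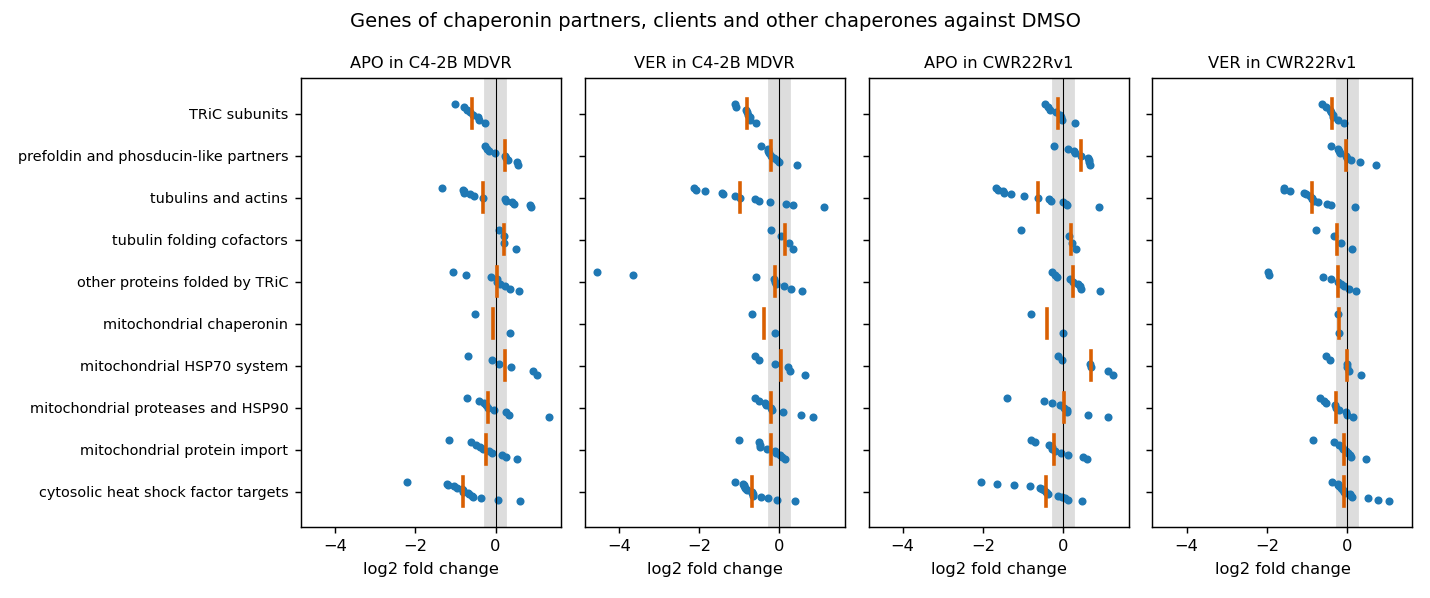
Log2 fold change against the DMSO library of the same line for each gene (points) of 10 groups of chaperonins, partners, clients and other chaperones, with the group median as a vertical bar and the band within 1.2-fold in grey. The TRiC medians (-0.60, -0.80, -0.13 and -0.37 from left to right) lie below those of prefoldin and phosducin-like partners (0.24, -0.22, 0.44 and -0.03, the last turning positive under a median ratio of 1), while tubulins and actins reach further down.

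The inhibitors were also compared directly. In C4-2B MDVR, 4 of 8 subunits were lower with VER than with APO by more than 1.2-fold and 0 were higher, where 32.5% of all genes were lower and 28.5% higher. In CWR22Rv1 it was also 4 and 0, where 34.5% of all genes were lower and 37.3% higher. The subunit medians were -0.21 and -0.27, beside -0.02 and 0 for all genes. Under scaling to the same FPKM sum the count in C4-2B MDVR was 1, and in CWR22Rv1 it was 6. Without the mitochondrial chromosome the counts were 1 and 3, and TCP1, CCT3, CCT6A and CCT8 had positive differences in C4-2B MDVR (0.07, 0.07, 0.12 and 0.03). The same FPKM sum moved the median of genes above 1 FPKM by 0.14 and -0.18. Relative to that median the subunit median was -0.18 in C4-2B MDVR under all 4 scalings, and between -0.24 and -0.25 in CWR22Rv1.

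CCT4 had the lowest VER to APO ratio in C4-2B MDVR, with a log2 difference of -0.49, and -0.37 in CWR22Rv1. CCT2 had differences of -0.34 and -0.44 and CCT7 of -0.38 and -0.37. HSPD1 had differences of -0.46 in C4-2B MDVR and -0.20 in CWR22Rv1. HSPE1 had a difference of -0.17 in C4-2B MDVR, which turned positive without the mitochondrial chromosome, and of 0.57 in CWR22Rv1. APO and VER were each used at 10 µM, and equal doses need not mean equal inhibition.

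Between the lines under DMSO, 5 of the 10 genes lay within 1.2-fold, where 82.4% of all genes lay past it in either direction. Among genes with a mean over 10 FPKM, 72.5% lay past it. Relative to C4-2B MDVR, 4 TRiC subunits were lower and 1 was higher in CWR22Rv1 by more than 1.2-fold, where 39.2% of 20903 genes were lower and 43.2% higher. CCT3 was the lowest, at 190.3 against 299 FPKM (log2 difference -0.65), followed by CCT5 (-0.34), TCP1 (-0.30) and CCT6A, just past 1.2-fold (-0.26). Under a median ratio of 1, and without the mitochondrial chromosome, CCT3 alone stayed lower by more than 1.2-fold. CCT7 was the subunit that was higher, at 200.5 against 154 FPKM (0.38). HSPD1 (674 against 673 FPKM) and HSPE1 (344 against 322 FPKM) were within 1.2-fold, and the sign for HSPD1 and CCT8 depended on the scaling. Relative to the median of genes above 1 FPKM, which a median ratio of 1 moved by 0.10 and leaving out the mitochondrial chromosome by 0.13, the TRiC median was -0.19 under all 4 scalings.

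Some members share a start region with a gene on the other strand, and these neighbours were chosen after the values were seen. CCT4 and COMMD1, a regulator of copper transport and NF-kappaB, start 54 bases apart and their annotated spans overlap. COMMD1 was at 23.3, 68.6 and 42.4 FPKM in C4-2B MDVR and at 11.4, 37.7 and 18.6 FPKM in CWR22Rv1. COMMD1 was thus higher with each inhibitor while CCT4 lay below DMSO in 3 of the 4 comparisons. TCP1 and MRPL18, a protein of the mitochondrial ribosome, start 210 bases apart, and MRPL18 had log2 fold changes of -0.45 and -0.41 in C4-2B MDVR and of -0.41 and -0.33 in CWR22Rv1, all on the side of TCP1. CCT3 and TSACC start 234 bases apart, and TSACC was between 0.836 and 3.25 FPKM, with changes of -0.10 and 0.09 and of -0.75 and -1.003.

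**Figure D5:**
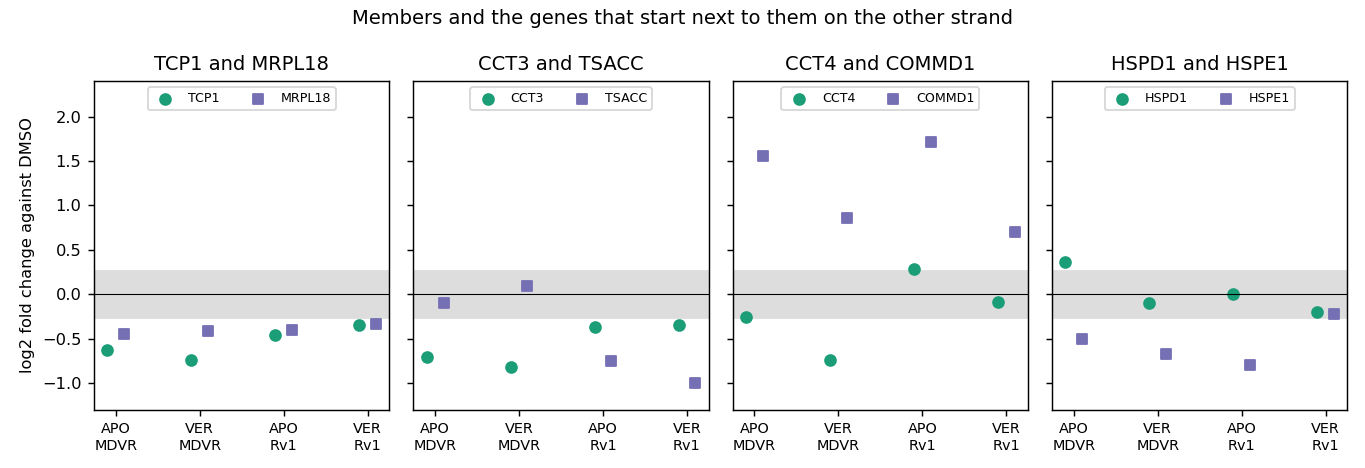
Log2 fold change against the DMSO library of the same line for 4 members (circles) and the gene that starts next to each on the other strand (squares), first the inhibitors in C4-2B MDVR (MDVR), then in CWR22Rv1 (Rv1), with the band within 1.2-fold in grey. MRPL18 stays below 0 with TCP1 in all 4 comparisons, COMMD1 lies above 0 in all 4 while CCT4 lies above 0 only with APO in CWR22Rv1, and HSPE1 lies below HSPD1 in all 4.

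Copies of these genes elsewhere in the genome had low FPKM values. Of 56 pseudogenes matched by symbol, 4 exceeded 1 FPKM in any library. CCT6P1 reached 7.15 FPKM in CWR22Rv1 with DMSO and CCT6P3 reached 2.02 FPKM with VER, and the pseudogenes of CCT6A together came to at most 6.34% of its FPKM. HSPE1P13 was at 2.34 FPKM in CWR22Rv1 with VER and HSPE1P4 at 1.47 FPKM in C4-2B MDVR with VER, each listed at 0 in the other 5 libraries. The pseudogenes of HSPE1 came to at most 0.797% and those of HSPD1 to at most 0.145% of the parent gene. CCT6B, the relative of CCT6A known from testis, was at 1.01, 2.04 and 2.15 FPKM in C4-2B MDVR and at 0.396, 2.48 and 1.40 FPKM in CWR22Rv1, against the direction of CCT6A. The read-through gene HSPE1-MOB4 was at most 0.533 FPKM.

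Genes with the profile most like the TRiC median were sought among 12269 protein-coding genes averaging 1 FPKM or more, by the Euclidean distance over the 4 inhibitor comparisons. The nearest were TARDBP (distance 0.0416), MRPL36 (0.0453), MRPL50 (0.121), GART (0.123) and TFB2M (0.130). TARDBP, an RNA-binding protein, had log2 fold changes of -0.63 and -0.81 in C4-2B MDVR and of -0.11 and -0.38 in CWR22Rv1. Of the subunits themselves, CCT5 was the nearest to their median (0.0890), while CCT4 (0.609) and CCT6A (0.567) were the farthest. HSPE1 and HSPD1 were farther than any subunit (0.702 and 1.21).

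The genes nearest to the mean profile of HSPD1 and HSPE1 were MRPL51 (0.0519), METTL17 (0.0901), EED (0.103), MIF (0.116) and ZNF141 (0.120). This mean describes neither gene well, since each lies at a distance of 0.653 from it. These lists are descriptions over 4 comparisons that share 2 DMSO libraries.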

How the data were processed

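RNA from 6 cultures, 1 for each line and treatment, was sequenced as paired ends. The authors deposited 1 FPKM value per gene and library, made with HISAT, Cufflinks and Cuffnorm on GRCh38 according to the submitters' processing notes, while the methods also name StringTie. Versions, the annotation and whether counting used the strand are not given in the sources used here. The labels describe a stranded poly(A) kit and the methods another kit. Read totals are not in the values. Ratios of low values between libraries put the relative depth at 1 to 1.67, but the commonest ratio rested on as few as 9 genes, so no counting error is given.

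Identifiers were matched to GENCODE 29 (57047 of 60658 had a symbol), which also gave the coordinates. Differences of log2(FPKM + 0.1) were taken for genes above 0.1 FPKM in at least 1 library of the line, or in at least 1 of the 2 DMSO libraries between lines. With 1 library per group no test was made. From each list the text names the 2 genes with the highest and the 2 with the lowest mean change among those above 1 FPKM, or all genes of a list of up to 6. ACTB and ACTG1 were named in addition, after their values were seen. The members and lists were chosen with earlier results of these data known. The functions were tested on a copy of the C4-2B MDVR DMSO library in which some genes were changed by known folds, with no noise added. Such a test checks the calculation only and cannot show how far real libraries vary. Alternatives were pseudocounts of 0.01 and 1, other filters, 3 other scalings, thresholds of 1.5-fold and 2-fold, and sums with pseudogenes. A comparison of protein sequences was not made. Python 3.11.15, pandas 2.3.3, numpy 2.4.6 and matplotlib 3.10.9 were used. Some genes of the luminal marker list are not reported here.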

Additional observations from a re-analysis of the deposited data

Results flagged for a closer look

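None of the 10 chaperonin genes lay past 1.2-fold in opposite directions in the 2 lines as deposited. Under other scalings CCT4 with APO did: it was -0.26 in C4-2B MDVR and 0.27 in CWR22Rv1 at a median ratio of 1, and -0.41 and 0.40 at the same FPKM sum. Among 55 genes of the lists of partners, clients and other chaperones, 7 combinations of gene and comparison did as deposited. The share of all genes that did so is not given here, so the 7 cannot be read as many or few. The difference between the lines was not tested, since each line had 1 library per treatment.

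TUBB6, a beta tubulin and client of TRiC, had a log2 fold change with APO of 0.90 in C4-2B MDVR and -0.35 in CWR22Rv1, and with VER of 1.10 and -0.87. TBCB, a tubulin cofactor, had a change with VER of 0.34 in C4-2B MDVR and -0.33 in CWR22Rv1. HSPA1B had a change with VER of -0.91 in C4-2B MDVR and 0.53 in CWR22Rv1. HSPA8 had a change with VER of -0.89 in C4-2B MDVR and 0.76 in CWR22Rv1, and a difference between VER and APO of -0.96 and 1.15. BBS12 had a difference between VER and APO of 0.29 in C4-2B MDVR and -0.41 in CWR22Rv1, at levels below 3 FPKM.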

How the results depend on the processing

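Of 259 values under an alternative, 229 were classed as the same, 30 as moved and 0 as changed in sign past 1.2-fold. A log2 value was classed as the same if it kept its side of 1.2-fold and shifted by at most 0.26. A count was classed as the same if it differed from the reported count by a factor of at most 1.5. Signs of other values within 1.2-fold turned with the scaling, among them those of ATF5, STAT3, TBCD and TOMM20 with APO in C4-2B MDVR, GRPEL1, HSPA4L, TBCB and TOMM20 with APO in CWR22Rv1, TXNDC9 with VER in C4-2B MDVR, and SPG7 and YME1L1 with VER in CWR22Rv1. A pseudocount of 1 left 4 subunits past 1.2-fold between the lines in place of 5, and the other counts were the same under each pseudocount and filter. The filters could not move any of the 259 values, because every chaperonin gene was at 71.1 FPKM or more in every library. The pseudocounts are small beside such levels and could hardly move them. The 229 therefore include values fixed in advance, which say nothing about how stable the results are. No paired analysis was possible because each group had 1 library and the labels carry no replicate numbers.

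At 1.5-fold, 4 of 8 TRiC subunits were lower for APO in C4-2B MDVR, where 23.1% of all genes were lower. For VER in that line 8 of 8 were lower, where 22.4% of all genes were. In CWR22Rv1, 0 were past 1.5-fold for APO and 1 was lower for VER, where 27.5% and 17.5% of all genes were lower. For VER against APO there were 0 in each line, where 17.7% and 20.6% of all genes were lower. Between the lines 1 was lower, where 29.2% of all genes were. At 2-fold, C4-2B MDVR had 1 lower subunit for APO and 2 for VER, where 13.3% of all genes were lower for each inhibitor. The other 5 comparisons had 0 at 2-fold, where between 8.92% and 19.4% of all genes were lower. Scaling to the same FPKM sum gave 2 subunits with APO in CWR22Rv1 (1 lower, 1 higher) and 1 for VER against APO in C4-2B MDVR. It gave a TRiC median between the lines of -0.28, an HSPD1 change of 0.21 with APO in C4-2B MDVR, -0.26 with VER in CWR22Rv1 and -0.38 for VER against APO in CWR22Rv1, and an HSPE1 change of -0.29 with VER in CWR22Rv1. Scaling without the mitochondrial chromosome gave HSPD1 changes of 0.20 with APO in C4-2B MDVR and -0.26 with VER in CWR22Rv1, an HSPE1 change of -0.29 with VER in CWR22Rv1, TRiC medians of -0.28 with APO and -0.18 for VER against APO in CWR22Rv1, 1 subunit for VER against APO in C4-2B MDVR and 2 between the lines. A median ratio of 1 gave a TRiC median of -0.21 for VER against APO in CWR22Rv1 and 2 subunits between the lines. Sums with pseudogenes gave a median of -0.26 for VER against APO in CWR22Rv1. The thresholds lower the counts by construction, and for the other values the cause was not tested.

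The main limit is that 1 library per condition leaves the spread between cultures unknown. FPKM is a share of the library, and between 61% and 82.4% of all genes passed 1.2-fold in either direction in the 7 comparisons.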
